A study of Oryza sativa with 8 samples.

Results

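The loci described here lie in 4 stretches of rice chromosome 9 in which a cold-tolerant and a cold-sensitive line had been seen to differ in root RNA at 28 °C. Members were all gene IDs from LOC_Os09g25590 to LOC_Os09g26830, LOC_Os09g29310 to LOC_Os09g30310, LOC_Os09g32810 to LOC_Os09g34060 or LOC_Os09g38580 to LOC_Os09g39560 and with a mean of at least 1 normalised read over the 8 libraries. Of 360 IDs in these ranges, 29 had a mean of 0, 58 had a mean above 0 and under 1, and 3 were left out by the rule. The remaining 270 members, of 42189 IDs in the tables, fell into stretch 1 (68 members), stretch 2 (64), stretch 3 (69) and stretch 4 (69). The ranges were chosen by the line comparison at 28 °C, so its values are given below as a description. The comparison of the lines at 10 °C used other libraries, but its calls are not independent of that choice, as set out below.

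Roots of indica rice were sampled at about 30 days, at the stage of 3 leaves. The tolerant and the sensitive line were IRGA breeding lines whose names share a stem. The 4 groups were tolerant roots at 10 °C, sensitive roots at 10 °C, tolerant roots at 28 °C and sensitive roots at 28 °C, each with 2 libraries of 4 pooled plants, so 1 tolerant and 1 sensitive line stand for their class. The labels give the time in the cold both as 24 h and as up to 10 days.

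In the rice LOC_Os naming scheme the digits before the g give the chromosome and those after it give the order of the loci along it, so neighbours in number are neighbours on the chromosome. Rice is a plant of warm climates, and indica rice is in general the more cold-sensitive of its main subspecies. Roots at 10 °C are in the range in which water uptake and growth of rice seedlings are known to be impaired. The files give the loci by ID alone and 0 IDs matched the reference table, so no member is given a gene name, a function or a sequence. Members are therefore described by place, by line and by response to cold.

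A group's level below is a normalised read count derived from the authors' deposited tables, and reads are the whole reads it stands for over both libraries of the group. Differences are log2 values with the deposited standard error (SE). Called means that the Wald test in the authors' deposited table gave an adjusted p below 0.05, adjusted by Benjamini-Hochberg over all genes that passed the deposited filter on low means. Where a group held 0 reads, the fold is a lower bound set against 3 reads over the group. That floor is 1.66 normalised reads in tolerant roots and 1.83 in sensitive roots at 10 °C, and 1.22 in tolerant roots and 1.28 in sensitive roots at 28 °C. With 1 to 3 reads the ratio has an exact 95% Poisson interval. Floors and intervals cover counting error only. Values per library were not used here. The p-values rest on the spread between the 2 libraries of each group, which may be partly technical. That spread was estimated in 1 fit of all 8 libraries, so the p-values at 10 °C also draw on the 28 °C libraries. In whole roots, fewer cells of a type and less RNA per cell cannot be told apart.

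Library depth differed more between temperatures than between lines, the size factors running from 0.679 up to 0.991 at 10 °C and from 1.10 up to 1.25 at 28 °C. All 5 loci of a short root marker list were detected, with summed levels of 8144 in tolerant roots and 8475 in sensitive roots at 10 °C, and 67090 in tolerant roots and 50219 in sensitive roots at 28 °C. The near-equal sums at 10 °C held loci that differed in both directions. LOC_Os07g15460 had 2312 in tolerant roots and 484 in sensitive roots there, and LOC_Os02g51110 had 1257 and 2614. The root sum was lower at 10 °C than at 28 °C in both lines. All 5 loci of a leaf photosynthesis list were also detected, none at 0, with summed levels of 1636 in tolerant roots and 4438 in sensitive roots at 10 °C, and 4372 in tolerant roots and 4457 in sensitive roots at 28 °C. The leaf list was thus lower in tolerant roots at 10 °C, and its part in the line differences below was not tested. Both lists were written from general knowledge and could not be checked against an annotation.

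At 10 °C the lines differed at 36 of the 238 members with an adjusted p, or 15.1%, while 32 members had none. Over all genes tested at 10 °C, 2.90% were called. In tolerant roots 26 members were higher, where 1.31% of all genes tested were, and 10 were lower, where 1.60% were. The called members were spread over the 4 stretches, with 11, 9, 8 and 8 in stretches 1 to 4. Elsewhere on chromosome 9, 57 of 1073 tested loci were called at 10 °C (5.31%), and in the flanks within 200 in locus number of a stretch 10 of 114 were (8.77%). The loci elsewhere on chromosome 9 include these flanks, and the rest of the series includes both. Among loci with a mean of at least 20, the median absolute log2 difference at 10 °C was 0.46 for the 213 members and 0.51 for the 98 flanking loci. It was 0.37 for all loci of chromosome 9 outside the stretches and 0.31 for the rest of the series. Pooled, the flanks thus had the larger median and the members the larger share called. Single flanks varied, with at most 19 tested loci each. Before stretch 1, 3 of 12 loci were called (25%), and before stretch 2, 2 of 8 (25%). Both shares were above those of the adjoining stretches, 19.6% in stretch 1 and 16.1% in stretch 2. Every other flank had a share below that of its stretch, from 0% to 11.1%. No test of the share of members against these other loci was made.

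At 28 °C, the comparison that chose the ranges, 30 of 270 members were called, 23 higher and 7 lower in tolerant roots. Over all genes 0.765% were called there, 0.392% higher and 0.374% lower, and nothing is read from that contrast. A total of 42 members were called at one temperature or the other. Of these, 24 were called at both, 12 at 10 °C only and 6 at 28 °C only. The 24 made up 66.7% of the members called at 10 °C and 80.0% of those called at 28 °C, where over all genes calls at both made up 22.2% and 71.6%. Since the members were chosen by the values at 28 °C, nothing is read from these shares. Of the 24, 17 were higher in tolerant roots at both temperatures, 6 were lower at both, and 1 changed direction. Over all genes, 4 of the 151 called at both temperatures changed direction, so a shared direction is not particular to the members. The difference between temperatures was not tested for a member called at one of them, except in the derived test given with the cold responses. LOC_Os09g30190, called at 28 °C only, passed that test, and no member called at 10 °C only did.

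**Figure D1:**
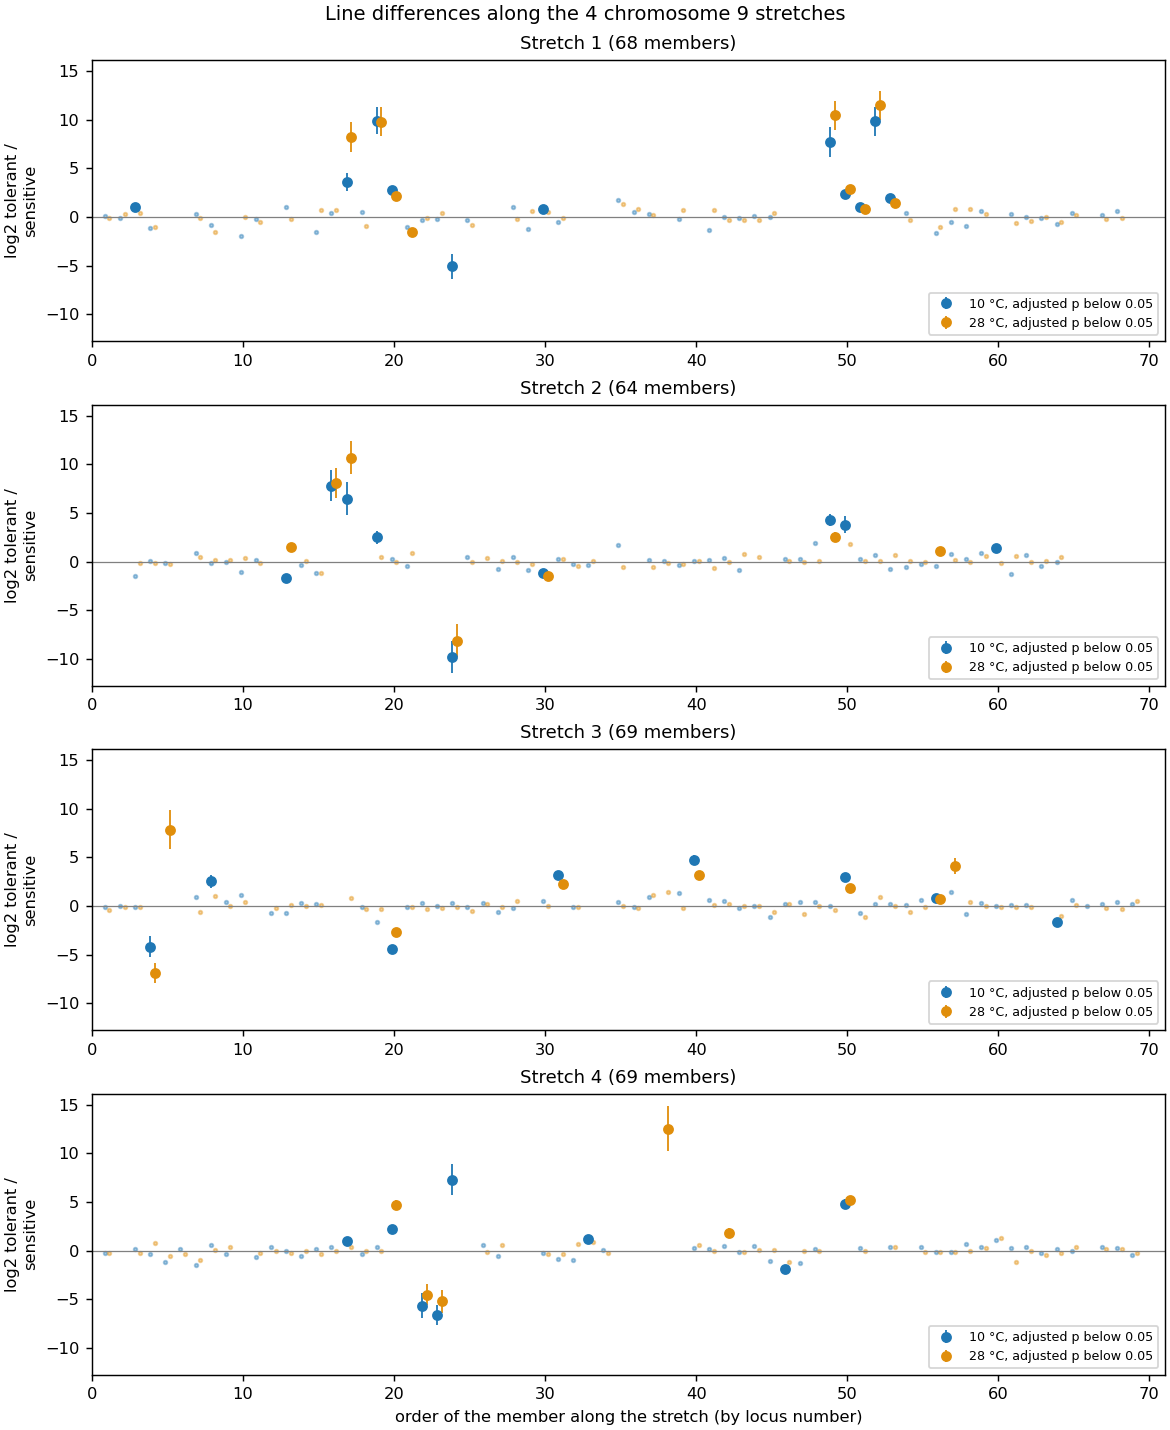
Log2 differences of tolerant over sensitive roots for each member, in order of locus number, in stretches 1 to 4 from top to bottom, at 10 °C (blue) and 28 °C (orange). Large points with SE bars are called members, small points are uncalled members with an SE of at most 1, and 55 uncalled members at 10 °C and 52 at 28 °C with a larger SE are not drawn. Among the points drawn the largest differences belong to called members, the smallest called ones overlap with uncalled ones, and all but 1 of the 24 called at both temperatures lie on the same side of 0 in both.

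Stretch 1 held the longest run of neighbouring called members, 5 members from LOC_Os09g26530 to LOC_Os09g26560, all higher in tolerant roots at both temperatures. LOC_Os09g26554 had a level of 209 (378 reads) in tolerant roots and 0 reads in sensitive roots at 10 °C. At 28 °C it had 447 (1098 reads) in tolerant roots and again 0 reads in sensitive roots. It was thus at least 114-fold higher in tolerant roots at 10 °C (adjusted p = 2.2e-08, deposited Wald test) and at least 348-fold higher at 28 °C. LOC_Os09g26530 showed the same pattern, with 87 reads in tolerant roots and 0 in sensitive roots at 10 °C, and 544 in tolerant roots and 0 in sensitive roots at 28 °C. Its fold at 10 °C was at least 26.4 (adjusted p = 5.4e-05, deposited Wald test) and at 28 °C at least 172. For both loci the sensitive line gave no read at either temperature.

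The other 3 members of the run were expressed in both lines. LOC_Os09g26540 had a level of 633 in tolerant roots and 123 in sensitive roots at 10 °C, and 345 in tolerant roots and 45.5 in sensitive roots at 28 °C. Its log2 difference was 2.36 ± 0.336 at 10 °C (SE, adjusted p = 1.13e-09, deposited Wald test) and 2.92 ± 0.350 at 28 °C. LOC_Os09g26560 had 2999 in tolerant roots and 786 in sensitive roots at 10 °C, and 2906 in tolerant roots and 1099 in sensitive roots at 28 °C, differences of 1.93 ± 0.245 (adjusted p = 3.13e-12, deposited Wald test) and 1.40 ± 0.243. LOC_Os09g26550, between them, had the smallest difference of the run, 1.01 ± 0.216 at 10 °C (adjusted p = 0.000373, deposited Wald test) and 0.80 ± 0.214 at 28 °C. Within 5 adjacent loci the difference between lines thus ran from about 2-fold to the absence of reads in sensitive roots.

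A separate group of called members lay earlier in stretch 1. LOC_Os09g25934 had 1071 reads in tolerant roots and 1 in sensitive roots at 10 °C, and 953 in tolerant roots and 1 in sensitive roots at 28 °C. The ratio was 970 (95% interval 174 to 38310) at 10 °C (adjusted p = 1.16e-09, deposited Wald test) and 906 (163 to 35767) at 28 °C. Its neighbour LOC_Os09g25950 had levels of 802 in tolerant roots and 113 in sensitive roots at 10 °C, and 517 in tolerant roots and 112 in sensitive roots at 28 °C. The differences were 2.83 ± 0.308 (adjusted p = 8.24e-17, deposited Wald test) and 2.21 ± 0.303. The next of the named members, LOC_Os09g25960, ran the other way, with 120 in tolerant roots and 246 in sensitive roots at 10 °C and 58.3 in tolerant roots and 169 in sensitive roots at 28 °C. It was called at 28 °C only (-1.53 ± 0.367), and its difference at 10 °C was -1.04 ± 0.361 (adjusted p = 0.0975, deposited Wald test).

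LOC_Os09g26000 was the 1 member of stretch 1 called lower in tolerant roots at 10 °C. It had 3 reads in tolerant roots and 95 in sensitive roots at 10 °C, a ratio of 35.1 (95% interval 12.01 to 170.2; adjusted p = 0.00468, deposited Wald test), and levels of 8.25 in tolerant roots and 41.1 in sensitive roots at 28 °C. The first called member of the stretch, LOC_Os09g25640, had 610 in tolerant roots and 305 in sensitive roots at 10 °C, a difference of 1.00 ± 0.255 (adjusted p = 0.00636, deposited Wald test), and 789 in tolerant roots and 591 in sensitive roots at 28 °C. At 28 °C its difference was 0.42 ± 0.248, and it was not called. In all, stretch 1 had 10 members called higher and 1 called lower in tolerant roots at 10 °C.

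**Figure D2:**
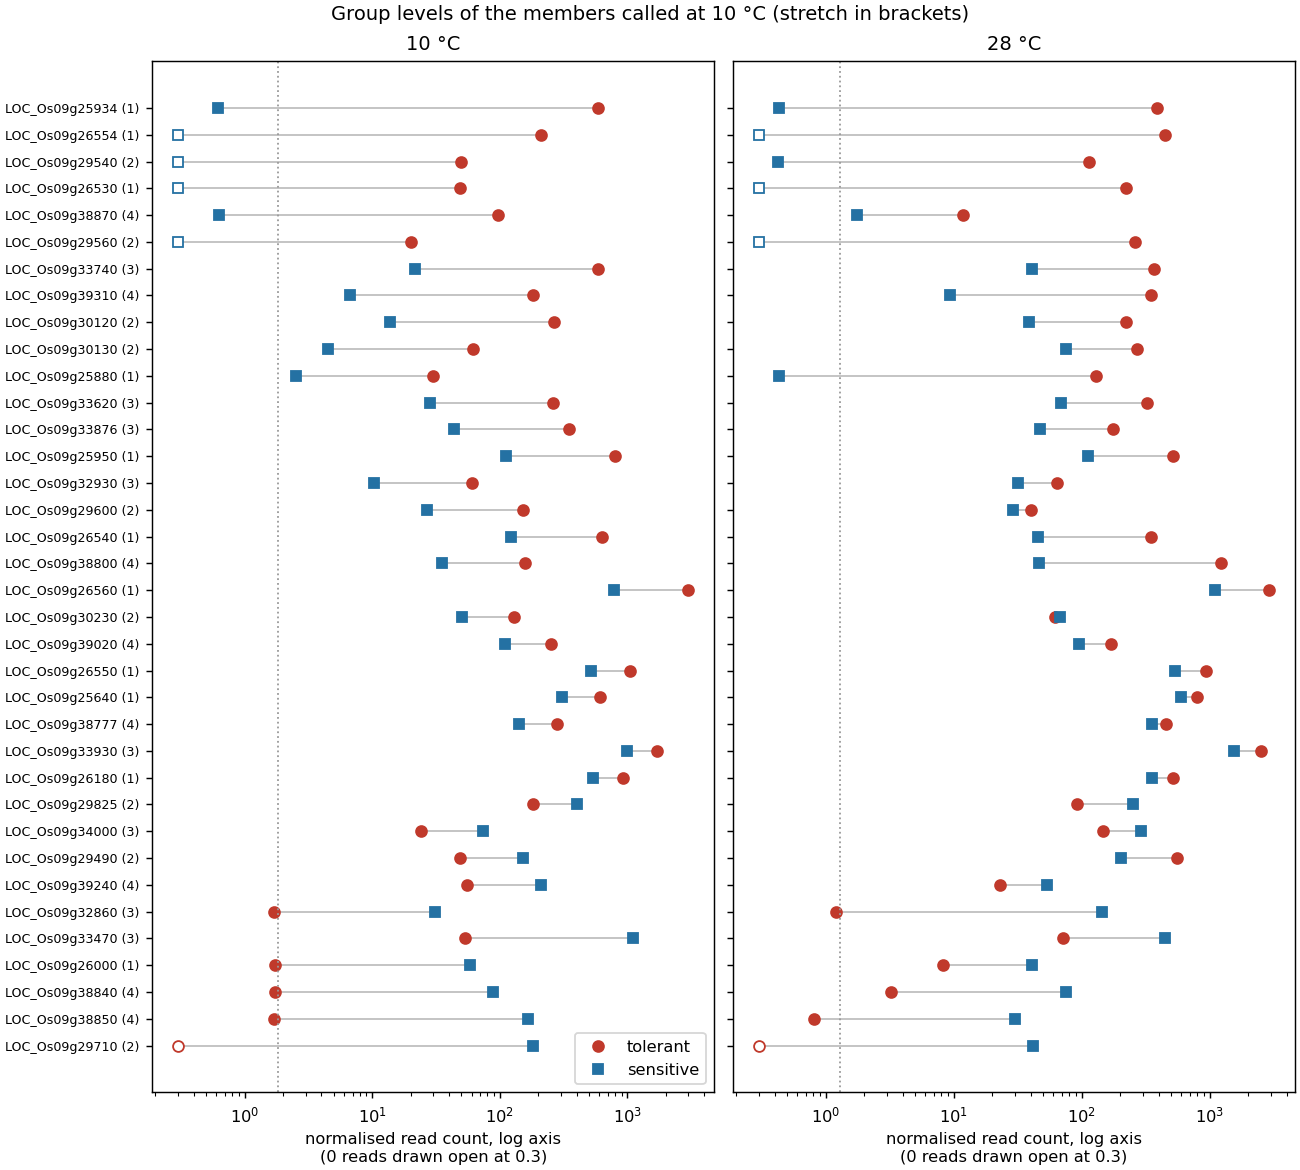
Normalised read counts of the 36 members called at 10 °C (one per row, stretch in brackets), at 10 °C on the left and 28 °C on the right, on log axes, with tolerant roots as red circles and sensitive roots as blue squares; groups with 0 reads are open symbols drawn at 0.3 and the dotted line is the floor of sensitive roots. At the top sensitive roots are at or near 0 reads, at the bottom tolerant roots are, and LOC_Os09g29490 has its symbols in opposite order in the panels.

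In stretch 2 called members were divided between the lines, 6 higher and 3 lower in tolerant roots at 10 °C. The pair LOC_Os09g29540 and LOC_Os09g29560, neighbours among the members, was read almost only in tolerant roots. LOC_Os09g29540 had 90 reads in tolerant roots and 0 in sensitive roots at 10 °C, at least 27.3-fold higher (adjusted p = 0.000164, deposited Wald test), and 280 in tolerant roots and 1 in sensitive roots at 28 °C. LOC_Os09g29560 had 36 reads in tolerant roots and 0 in sensitive roots at 10 °C, at least 10.9-fold higher (adjusted p = 0.0075, deposited Wald test), and 639 in tolerant roots and 0 in sensitive roots at 28 °C, at least 203-fold higher. A few members on, LOC_Os09g29710 showed the mirror image, with 0 reads in tolerant roots and 297 in sensitive roots at 10 °C, and 0 in tolerant roots and 97 in sensitive roots at 28 °C. It was at least 109-fold lower in tolerant roots at 10 °C (adjusted p = 8.68e-07, deposited Wald test) and at least 34.0-fold lower at 28 °C.

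LOC_Os09g29825 was also lower in tolerant roots at both temperatures, with 181 in tolerant roots and 404 in sensitive roots at 10 °C, and 91.1 in tolerant roots and 253 in sensitive roots at 28 °C. Its difference was -1.16 ± 0.255 at 10 °C (adjusted p = 0.000641, deposited Wald test) and -1.47 ± 0.261 at 28 °C. LOC_Os09g30120 had 264 in tolerant roots and 13.9 in sensitive roots at 10 °C, a difference of 4.25 ± 0.587 (adjusted p = 2.85e-10, deposited Wald test). At 28 °C it had 222 in tolerant roots and 38.7 in sensitive roots, a difference of 2.52 ± 0.523. Its neighbour LOC_Os09g30130 had 61.8 in tolerant roots and 4.47 in sensitive roots at 10 °C, a difference of 3.79 ± 0.875 (adjusted p = 0.00142, deposited Wald test), and 268 in tolerant roots and 75.6 in sensitive roots at 28 °C, where it was not called. These neighbours were thus both higher in tolerant roots at 10 °C.

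LOC_Os09g29600 and LOC_Os09g30230 were called at 10 °C and lay close together in both lines at 28 °C. Neither passed the derived test given with the cold responses, so a difference between temperatures was not shown for them. LOC_Os09g29600 had 151 in tolerant roots and 27.0 in sensitive roots at 10 °C (2.48 ± 0.635; adjusted p = 0.00645, deposited Wald test), and 40.1 in tolerant roots and 29.3 in sensitive roots at 28 °C. LOC_Os09g30230 had 129 in tolerant roots and 50.2 in sensitive roots at 10 °C (1.37 ± 0.391; adjusted p = 0.0219, deposited Wald test), and 62.3 in tolerant roots and 68.1 in sensitive roots at 28 °C. The 1 member called in opposite directions was LOC_Os09g29490. It had 48.4 in tolerant roots and 151 in sensitive roots at 10 °C, a difference of -1.64 ± 0.375 (adjusted p = 0.00119, deposited Wald test), and 552 in tolerant roots and 201 in sensitive roots at 28 °C, a difference of 1.45 ± 0.338. LOC_Os09g30190 leaned the same way, with 115 in tolerant roots and 159 in sensitive roots at 10 °C (-0.46 ± 0.307; adjusted p = 0.574, deposited Wald test) and 634 in tolerant roots and 298 in sensitive roots at 28 °C (1.09 ± 0.283).

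In stretch 3 the called members stood singly, with runs of at most 2, and 5 were higher and 3 lower in tolerant roots at 10 °C. LOC_Os09g33470 had the smallest adjusted p of the members at 10 °C. Its level was 53.3 in tolerant roots and 1102 in sensitive roots at 10 °C, a difference of -4.37 ± 0.297 (adjusted p = 1.07e-44, deposited Wald test), and 70.9 in tolerant roots and 447 in sensitive roots at 28 °C, a difference of -2.65 ± 0.281. LOC_Os09g33740 ran the other way, with 588 in tolerant roots and 21.6 in sensitive roots at 10 °C (4.76 ± 0.434; adjusted p = 2.6e-24, deposited Wald test) and 367 in tolerant roots and 40.7 in sensitive roots at 28 °C (3.17 ± 0.388). LOC_Os09g33620 had 261 in tolerant roots and 28.5 in sensitive roots at 10 °C (3.20 ± 0.393; adjusted p = 5.41e-13, deposited Wald test), and 323 in tolerant roots and 69.2 in sensitive roots at 28 °C (2.22 ± 0.347). LOC_Os09g33876 had 346 in tolerant roots and 43.9 in sensitive roots at 10 °C (2.98 ± 0.396; adjusted p = 4.49e-11, deposited Wald test), and 177 in tolerant roots and 47.6 in sensitive roots at 28 °C (1.89 ± 0.384). These 4 members were expressed well above the floor in both lines, and the absolute difference of each was larger at 10 °C. Of the 4, only LOC_Os09g33470 passed the derived test given with the cold responses. For LOC_Os09g33740, LOC_Os09g33620 and LOC_Os09g33876 a larger difference at 10 °C was thus not shown.

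The pair at the start of stretch 3 pointed in opposite directions. LOC_Os09g32860 had 3 reads in tolerant roots and 51 in sensitive roots at 10 °C, a ratio of 18.6 lower in tolerant roots (95% interval 6.38 to 90.4; adjusted p = 0.00579, deposited Wald test), and 3 in tolerant roots and 335 in sensitive roots at 28 °C. The next member, LOC_Os09g32870, had 13 reads in tolerant roots and 0 in sensitive roots at 10 °C, at least 3.88-fold higher (adjusted p = 0.23, deposited Wald test), and 90 in tolerant roots and 0 in sensitive roots at 28 °C, at least 28.4-fold higher. LOC_Os09g32870 thus missed the threshold at 10 °C, where its level was low in tolerant roots too.

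LOC_Os09g32930 had 60.9 in tolerant roots and 10.3 in sensitive roots at 10 °C (2.56 ± 0.670; adjusted p = 0.00812, deposited Wald test) and was not called at 28 °C, where it had 63.8 in tolerant roots and 31.9 in sensitive roots. LOC_Os09g33930 had a small difference at a high level, 1702 in tolerant roots and 989 in sensitive roots at 10 °C (0.78 ± 0.199; adjusted p = 0.00595, deposited Wald test), and 2532 in tolerant roots and 1535 in sensitive roots at 28 °C (0.72 ± 0.197). The adjacent LOC_Os09g33940 had 53.4 in tolerant roots and 20.2 in sensitive roots at 10 °C (1.40 ± 0.755; adjusted p = 0.429, deposited Wald test) and 73.3 in tolerant roots and 4.30 in sensitive roots at 28 °C (4.09 ± 0.839). LOC_Os09g34000, the last called member, had 23.9 in tolerant roots and 74.1 in sensitive roots at 10 °C (-1.63 ± 0.403; adjusted p = 0.00384, deposited Wald test), and 146 in tolerant roots and 289 in sensitive roots at 28 °C (-0.99 ± 0.324).

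In stretch 4 a run of 3 called members, LOC_Os09g38840 to LOC_Os09g38870, held both directions. LOC_Os09g38850 had 3 reads in tolerant roots and 275 in sensitive roots at 10 °C, and 2 in tolerant roots and 71 in sensitive roots at 28 °C. It was lower in tolerant roots by a ratio of 101 (95% interval 34.6 to 490.1; adjusted p = 3.21e-08, deposited Wald test) at 10 °C and 37.2 (10.3 to 307) at 28 °C. LOC_Os09g38840 had 3 reads in tolerant roots and 145 in sensitive roots at 10 °C, a ratio of 53.5 lower in tolerant roots (18.3 to 260; adjusted p = 0.00111, deposited Wald test), and 8 in tolerant roots and 176 in sensitive roots at 28 °C. LOC_Os09g38870, the third of the run, had 176 reads in tolerant roots and 1 in sensitive roots at 10 °C, a ratio of 159 higher in tolerant roots (28.6 to 6296; adjusted p = 0.000426, deposited Wald test). At 28 °C it had 29 reads in tolerant roots and 4 in sensitive roots and was not called.

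LOC_Os09g39310 had 182 in tolerant roots and 6.73 in sensitive roots at 10 °C (4.76 ± 0.541; adjusted p = 2.26e-15, deposited Wald test), and 347 in tolerant roots and 9.41 in sensitive roots at 28 °C (5.20 ± 0.440). LOC_Os09g38800 had 158 in tolerant roots and 35.2 in sensitive roots at 10 °C (2.16 ± 0.473; adjusted p = 0.000544, deposited Wald test), and 1226 in tolerant roots and 46.7 in sensitive roots at 28 °C (4.71 ± 0.446). Both were higher in tolerant roots at each temperature. LOC_Os09g39240 was lower, with 55.5 in tolerant roots and 209 in sensitive roots at 10 °C (-1.91 ± 0.455; adjusted p = 0.00234, deposited Wald test), and 23.2 in tolerant roots and 53.7 in sensitive roots at 28 °C (-1.21 ± 0.483). LOC_Os09g39020 had 251 in tolerant roots and 109 in sensitive roots at 10 °C (1.20 ± 0.298; adjusted p = 0.00404, deposited Wald test). LOC_Os09g38777, the first called member, had 278 in tolerant roots and 141 in sensitive roots at 10 °C (0.98 ± 0.272; adjusted p = 0.0157, deposited Wald test). Neither was called at 28 °C.

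LOC_Os09g39090 had the largest log2 difference of the members at 28 °C. It had 19572 reads in tolerant roots and 3 in sensitive roots at 28 °C, and 38 in tolerant roots and 3 in sensitive roots at 10 °C. The log2 difference was 3.55 ± 2.32 at 10 °C (adjusted p = 0.563, deposited Wald test) and 12.53 ± 2.29 at 28 °C. Its cold response in tolerant roots had an SE of 2.16, the largest among the 44 members with a mean of at least 1000, whose median SE was 0.245. How its reads were divided between libraries was not analysed here. LOC_Os09g39190 was called at 28 °C only, with 2552 in tolerant roots and 1816 in sensitive roots at 10 °C (0.49 ± 0.425; adjusted p = 0.71, deposited Wald test), and 373 in tolerant roots and 104 in sensitive roots at 28 °C (1.85 ± 0.436).

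**Figure D3:**
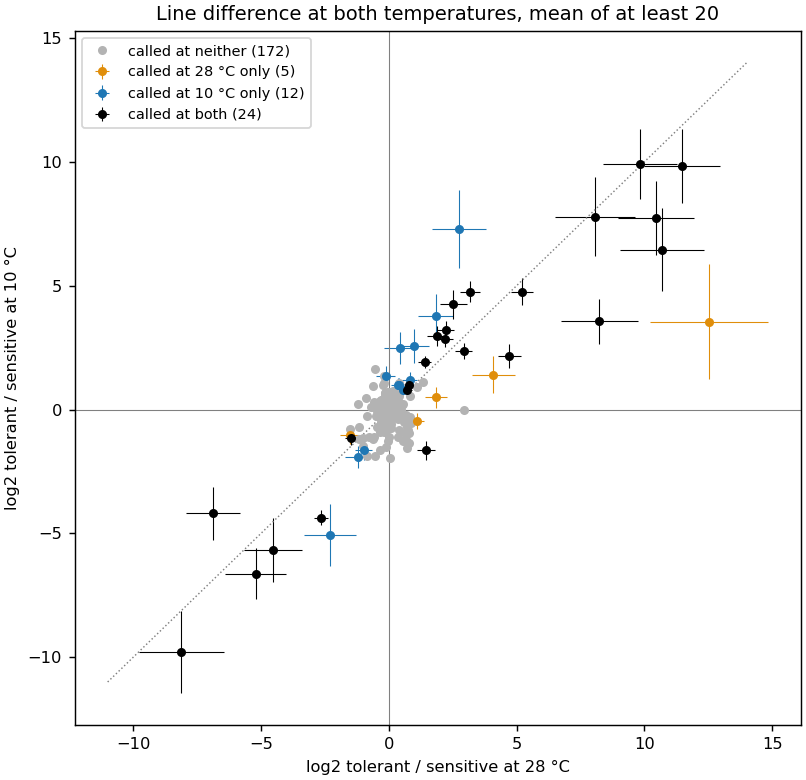
Log2 difference of tolerant over sensitive roots at 10 °C (vertical axis) against that at 28 °C (horizontal axis) for the 213 members with a mean of at least 20, with SE bars on called members; the dotted line marks equal differences. The 24 members called at both temperatures (black) spread over a wide range, 23 of them with the same sign at both temperatures and 1 in the lower right with opposite signs, some well off the line of equal differences, and the 172 uncalled members (grey) lie mostly near the origin.

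Across the 4 stretches, 10 members had at most 3 reads in sensitive roots and more than 3 in tolerant roots at both temperatures, 6 of them with a mean of at least 20. The reverse held for 8 members, 3 of them with such a mean. Such loci were not counted among other genes, so these counts have no share to be set against and nothing is read from them. Across the 213 members that averaged at least 20 normalised reads, the Pearson correlation of the line differences at 10 °C with those at 28 °C was 0.837, against 0.352 over the rest of the series. The Spearman correlation, which uses ranks and so gives less weight to the largest differences, was 0.464 over these members. It ran from 0.204 in stretch 2 up to 0.607 in stretch 4 and was not calculated for the rest of the series. The comparisons share no library, but the authors' fit shared the spread estimate of each gene. Members were also chosen by the values at 28 °C, which form 1 side of each correlation. Nothing is therefore read from the gap between 0.837 and 0.352. The sign of the difference was the same at both temperatures for 120 of these 213 members (56.3%) and for 65.3% of the flanking loci. It was the same for 50.7% of all loci of chromosome 9 outside the stretches, flanks included, and for 45.0% of the rest of the series. Among the 172 members called at neither temperature it was the same for 82 (47.7%), against 64.0% of uncalled loci in the flanks, 48.9% in all of chromosome 9 outside the stretches and 44.5% in the rest of the series. Uncalled members thus had a lower share of equal signs than uncalled loci of the flanks. Of the 42 members called at one temperature or the other, 39 had the same sign at both.

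Called members were mixed with uncalled ones in every stretch. From the first to the last called member, stretch 1 reached from LOC_Os09g25640 to LOC_Os09g26560, stretch 2 from LOC_Os09g29490 to LOC_Os09g30230, stretch 3 from LOC_Os09g32860 to LOC_Os09g34000 and stretch 4 from LOC_Os09g38777 to LOC_Os09g39310. Neither the end members of a stretch nor the nearest locus outside was called at either temperature. Just inside and outside the mean threshold, the members had means of 1.06, 1.09 and 1.10, and the IDs left out had 0.900, 0.789 and 0.787. Most abundant in stretches 1 to 4 were LOC_Os09g26420, LOC_Os09g29380, LOC_Os09g33810 and LOC_Os09g38580, and none of them was called between lines. LOC_Os09g26420, for example, had 6124 in tolerant roots and 5781 in sensitive roots at 10 °C (0.08 ± 0.242; adjusted p = 0.941, deposited Wald test).

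Line differences on chromosome 9 were not limited to the stretches. With the 1540 expressed loci in blocks of 50, the first 12 blocks held no member, and 6 of their 484 loci with an adjusted p at 10 °C were called (1.24%). In blocks 13 to 31, loci outside the stretches were called at 10 °C in 51 of 589 cases (8.66%), and members in 36 of 238. The division after block 12 was made after the values were seen and has no test. The loci outside the stretches in blocks 13 to 31 thus had a share called between those of the first 12 blocks and of the members. Single blocks overlapped in their counts. Block 21, with 0 members, had 7 loci called at 10 °C. Blocks 15, 19, 23 and 30, with at least 25 members each, had 10, 8, 5 and 8.

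**Figure D4:**
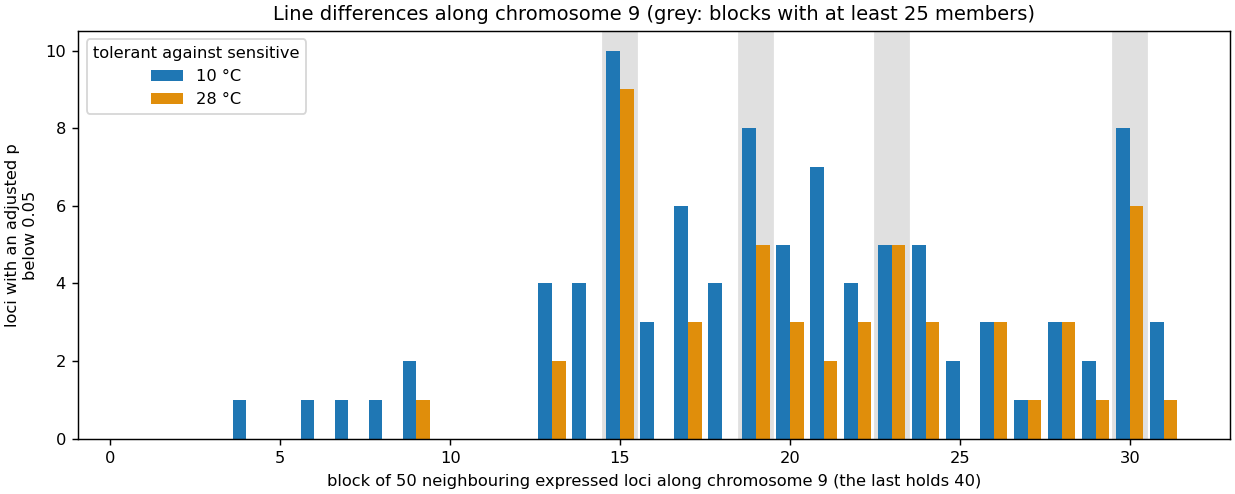
Number of loci called between tolerant and sensitive roots at 10 °C (blue) and 28 °C (orange) in blocks of 50 neighbouring expressed loci along chromosome 9, with blocks holding at least 25 members shaded grey. The first 12 blocks hold 0 to 2 called loci each at 10 °C, and the highest bar, 10 at 10 °C, stands in a shaded block.

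Responses to cold within each line were set beside these differences. They share the 28 °C libraries with the comparison that chose the ranges. In tolerant roots 107 of 263 members with an adjusted p were called (40.7%), 48 higher and 59 lower at 10 °C than at 28 °C, where 40.0% of all genes were called, 20.3% higher and 19.7% lower. In sensitive roots 98 of 263 were called (37.3%), 42 higher and 56 lower, where 44.5% of all genes were called, 22.8% higher and 21.8% lower. The members' share was thus close to that of all genes in tolerant roots and below it in sensitive roots, and neither gap was tested. A total of 67 members were called in both lines, 29 higher and 38 lower at 10 °C in both and 0 in opposite directions. A further 40 were called in tolerant roots only and 31 in sensitive roots only. Members called in both lines made up 62.6% of the tolerant and 68.4% of the sensitive calls. Over all genes, calls in both lines made up 79.8% of the tolerant and 71.7% of the sensitive calls.

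Of the members with the largest Wald statistics in a cold response, those described first were called in the same direction in both lines. LOC_Os09g25770 rose 2.65 ± 0.334 in tolerant roots, with 3569 at 10 °C against 567 at 28 °C, and 2.44 ± 0.334 in sensitive roots, with 4234 against 781 (adjusted p = 9.16e-14 and 6.45e-12, deposited Wald test). LOC_Os09g26700 had 8098 at 10 °C against 811 at 28 °C in tolerant roots (3.32 ± 0.464) and 6592 against 1222 in sensitive roots (2.43 ± 0.464), a rise in both (adjusted p = 2.5e-11 and 1.36e-06, deposited Wald test). LOC_Os09g30160 had 463 at 10 °C against 62.8 at 28 °C in tolerant roots (2.88 ± 0.520) and 763.5 against 38.5 in sensitive roots (4.31 ± 0.528), again a rise in both (adjusted p = 3.71e-07 and 1.19e-14, deposited Wald test). None of these members that rose was called between the lines.

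Among members that fell in both lines, LOC_Os09g32964 had 5.57 at 10 °C against 192 at 28 °C in tolerant roots (-5.11 ± 0.585) and 9.21 against 183 in sensitive roots (-4.31 ± 0.524), a fall in both (adjusted p = 1.62e-16 and 6.83e-15, deposited Wald test). LOC_Os09g25810 had 28.0 at 10 °C against 151 at 28 °C in tolerant roots (-2.43 ± 0.384) and 13.9 against 178 in sensitive roots (-3.68 ± 0.445), likewise a fall (adjusted p = 4.69e-09 and 5.41e-15, deposited Wald test). LOC_Os09g32968 (-1.85 ± 0.318 in tolerant and -2.18 ± 0.325 in sensitive roots) and LOC_Os09g39380 (-1.12 ± 0.215 and -1.57 ± 0.216) also fell in both. LOC_Os09g29930 rose by 1.19 ± 0.179 in tolerant and 1.02 ± 0.179 in sensitive roots. All 6 of their deposited adjusted p-values lay below 0.05.

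Of the 42 members that differed between lines, 23 were called in the cold response of tolerant roots (10 higher, 13 lower at 10 °C), 19 in that of sensitive roots (9 higher, 10 lower) and 10 in neither. These are 54.8% and 45.2% of the 42, where 40.0% and 44.5% of all genes were called, and the 42 were in part chosen by the 28 °C libraries that the responses share. LOC_Os09g39190, higher in tolerant roots at 28 °C, rose in both lines, by 2.77 ± 0.426 in tolerant and 4.13 ± 0.434 in sensitive roots (adjusted p = 1.64e-09 and 1.24e-19, deposited Wald test). LOC_Os09g34000 fell in both, by 2.61 ± 0.388 in tolerant roots and 1.96 ± 0.342 in sensitive roots on the log2 scale (adjusted p = 3.86e-10 and 9.83e-08, deposited Wald test). LOC_Os09g29560, without reads in sensitive roots, had 36 reads at 10 °C against 639 at 28 °C in tolerant roots (-3.70 ± 0.852; adjusted p = 9.03e-05, deposited Wald test).

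Whether the responses of the lines differed was asked with a derived Wald test on the deposited log2 changes and SEs, adjusted by Benjamini-Hochberg over 26199 genes. It contains the contrast that chose the ranges. Over all genes 0.622% passed, 0.214% with the more positive response in tolerant roots and 0.408% with the more negative one. Of 263 members 4 passed, and in all 4 the response of tolerant roots was the more negative. That is 1.52% of the members, against 3.31% of the flanking loci (4 of 121) and 1.24% of all loci of chromosome 9 outside the stretches, flanks included. At 28 °C, the contrast that chose the ranges, 23 of the 30 called members were higher in tolerant roots. A more negative response of tolerant roots is thus not independent of that choice, and nothing is read from the count or its direction. LOC_Os09g29490 fell in tolerant roots (-3.51 ± 0.365, against -0.41 ± 0.348 in sensitive roots), a difference of -3.10 ± 0.505 (adjusted p = 7.54e-06, derived Wald test). LOC_Os09g38800 fell in tolerant roots too (-2.96 ± 0.433, against -0.41 ± 0.485 in sensitive roots), a difference of -2.55 ± 0.650 (adjusted p = 0.0225, derived Wald test). LOC_Os09g30190 fell in both lines (-2.46 ± 0.295 in tolerant and -0.91 ± 0.295 in sensitive roots), a difference of -1.55 ± 0.417 (adjusted p = 0.0376, derived Wald test). LOC_Os09g33470 had -0.41 ± 0.314 in tolerant roots and rose in sensitive roots (1.30 ± 0.262), a difference of -1.72 ± 0.409 (adjusted p = 0.0119, derived Wald test).

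**Figure D5:**
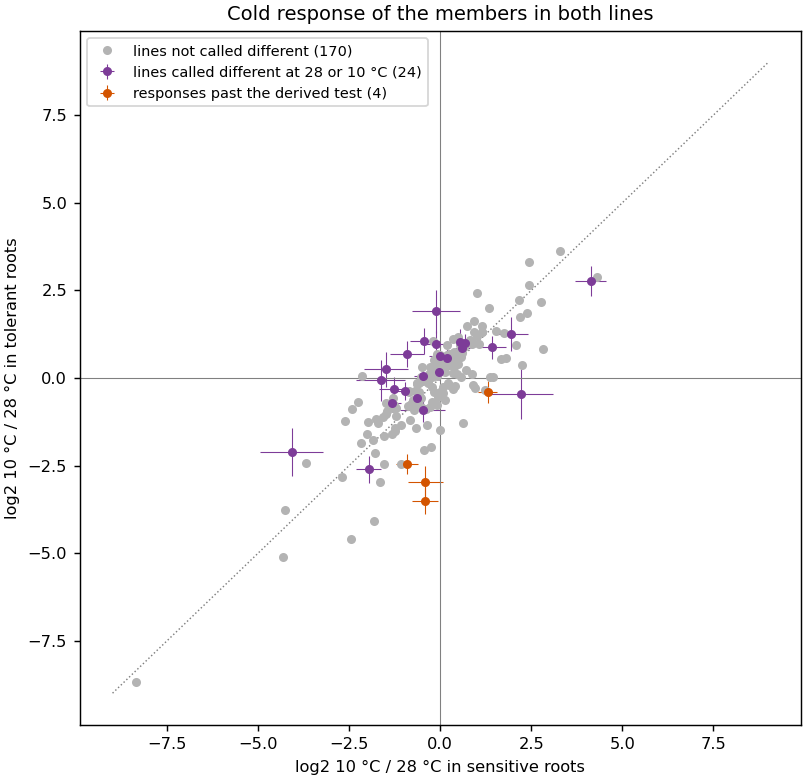
Log2 cold response (10 °C over 28 °C) in tolerant roots (vertical axis) against that in sensitive roots (horizontal axis) for the 198 members with a mean of at least 20 and more than 3 reads in every group; the dotted line marks equal responses and bars are SEs. The 4 members past the derived test (orange) lie below the line, 24 other members called between lines (purple) lie on both sides of it, and the remaining members (grey) follow it.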

How the data were processed

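RNA of 8 root libraries, 2 per group, was sequenced from poly-A RNA as single 50 bp ends on an Illumina instrument, per the labels' protocols. The data used were 4 tables deposited by the authors, with the columns of a DESeq2 results table per the file headers and all libraries in 1 fit. The mean normalised signal per gene, the log2 fold changes, the score columns (standard error and Wald statistic), and the p-value and adjusted p-value columns are as deposited. The submitters' processing notes name Bowtie 0.12.7, while the tables' names point to STAR. Build, counter and treatment of reads matching several loci were not stated in these sources, so neighbouring copies may share reads and every value is uncertain in that respect.

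Size factors were recovered from genes for which only 1 library held only 1 read, and group levels from the means and fold changes (Python 3.11.15, numpy 2.4.6, pandas 2.3.3, scipy 1.17.1). Reads under 0.5 were taken as 0. Calculations were tested on simulated data. Members and lists were chosen with earlier results of these data known. Named were, per stretch, up to 8 members called at 10 °C and 3 called at 28 °C only, 2 per line with the strongest cold response, all past the derived test, the first and last called, the end members with their nearest neighbours, and the most abundant (59 members in all). Settings tried were stricter thresholds, another adjustment, a mean of at least 10, recentring, rescaling and shorter stretches.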

Additional observations from a re-analysis of the deposited data

Results flagged for a closer look

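For 4 members the cold response differed between the lines in the derived Wald test, which contains the comparison that chose the ranges. Nothing is read from their count or shared direction. The tolerant-minus-sensitive difference of the log2 responses was -3.10 for LOC_Os09g29490, -1.55 for LOC_Os09g30190, -1.72 for LOC_Os09g33470 and -2.55 for LOC_Os09g38800. For LOC_Os09g29490 the line difference also had opposite signs at 10 °C and at 28 °C.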

How the results depend on the processing

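Over 110 recalculated counts, medians and shares, 95 lay within a set tolerance and 15 moved further. The tolerance was 1.5 times for a count, the median SE of a single member for a median, and a 95% binomial interval for a share. For a median this tolerance is wide. The median and the share were set against the values of all 270 members. Their median absolute log2 difference at 10 °C was 0.61, while the 0.46 given above covers members with a mean of at least 20. The line comparison at 10 °C had 32 to 37 called members, against 36, under every setting except rescaling of the Wald statistic by its robust spread over all genes. That rescaling left 23 members in all, 7 in stretch 1 and 4 in stretch 3, and called 1.16% of all genes tested. Under it few cold responses were called. In tolerant roots 1 member was left (1 in stretch 2 and 0 in stretches 1, 3 and 4). In sensitive roots 0 members were left in all and 0 in each stretch, with 98 at a deposited adjusted p below 0.05. By its construction this rescaling takes the spread of the typical gene as no change, in responses where 40.0% and 44.5% of all genes had been called. In tolerant roots the cold calls of stretch 2 were 13 at an adjusted p below 0.01, against 21, and those of stretch 3 were 15 with a change of at least 2-fold, against 25. Of 34 named members called at 10 °C, 16 also passed a test against a 2-fold change. Most of the 34 were named for their Wald statistics at 10 °C, and the share of all genes passing was not counted. Nothing is therefore read from the 16 about the members as a set. Weighting groups by size factors changed levels by at most 17.9%. No paired analysis was possible because the columns carry no replicate, and leaving out a library was not run for the same reason. Depth limits members with few reads: 32 had no adjusted p at 10 °C.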
